A study of Mus musculus with 16 samples.

Results

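The S100 genes described here are S100a1, S100a4, S100a6, S100a11, S100a13, S100a16 and S100b, 7 of the 16707 genes in the log2 CPM table (log2 of CPM, read counts scaled to the size of the library) deposited for cultured mouse astrocytes. They were taken by symbol, and the family was chosen by the log2 CPM levels of S100a6 and S100b, which were lower in Nlrx1-/- than in WT cells. The difference between the genotypes is therefore given below as a description without a test, while the response to treatment within each genotype was tested. All 7 genes passed the filter on low counts that left 16062 genes for testing.

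RNA was sequenced from astrocytes of P6 pups that were isolated with beads against the surface antigen ACSA-2 and grown in serum-free medium. There were 4 litters of WT (C57BL/6J) mice and 4 litters of Nlrx1-/- mice, made to lack NLRX1, a mitochondrial regulator of innate immunity. The sources used here do not say which part of the gene was removed. From each litter, one well received water as vehicle and another received lipopolysaccharide (LPS, 500 ng/mL) with interferon gamma (IFNγ, 10 ng/mL) for 24 h. This gave 16 poly-A libraries in 4 conditions, each with 4 litters. The age is given as P0-P1 in the text of the study's results, and the vehicle as buffered saline in a legend.

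S100 proteins are small calcium sensors with a pair of EF-hand loops. Most form dimers, and calcium binding opens a surface through which they hold partners such as annexins, myosin and cytoskeletal proteins. Several are also released from cells and act on the receptors RAGE (Ager) and TLR4. In the brain, S100b is a classical astrocyte gene that is also used by oligodendrocyte lineage and ependymal cells, and S100a6 is found in glial precursors and in a subset of astrocytes.

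Salmon assigned between 27259420 and 43752903 reads to transcripts per library, with a median of 35554625. Nlrx1, the targeted gene, lay between 4.08 and 4.44 log2 CPM in WT libraries and between 1.09 and 2.96 in Nlrx1-/- libraries, so the labels held although some reads remained. Of 10 astrocyte markers, 0 had a median under 1 TPM (a transcript abundance that accounts for length), against 9 of 10 microglia or macrophage and 8 of 10 endothelial markers. This does not set astrocytes apart from every cell type. Of 10 markers each, 2 of the oligodendrocyte lineage, 3 neuron, 3 fibroblast or meningeal and 4 ependymal or multiciliated markers had a median under 1 TPM. Of the microglia or macrophage markers, Aif1, Cx3cr1, Tmem119 and Itgam had a median of 0 TPM. C1qa, C1qb, Csf1r and Ptprc had medians of 0.0143 to 0.166 TPM. P2ry12 had a median of 0.454 TPM with reads in all 16 libraries, and Cd68 had a median of 2.13 TPM. Among the Nlrx1-/- litters, litter 3 held the highest level of all 7 S100 genes in both conditions, although its Nlrx1 values, 1.84 in vehicle and 1.09 in LPS+IFNγ, were the lowest of their groups. The 7 genes varied together, and the check of 42 sets of 4 litters described below marked no set for this litter.

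Of the 7 genes, 6 lie on chromosome 3 in GRCm39 (GENCODE M39), and 5 of these fall within 120 kb. On the plus strand are S100a13 (chr3:90416091-90431912), S100a16 (chr3:90444172-90450462), S100a4 (chr3:90511074-90513354) and S100a6 (chr3:90520140-90535843). S100a1 lies on the minus strand (chr3:90418340-90421848) inside the interval of S100a13. S100a11 (chr3:93414382-93435293) lies further along the chromosome, and S100b (chr10:76085090-76097159) lies alone on chromosome 10. The exons of S100a1 and S100a13 share 2563 bases on opposite strands in GENCODE, and the libraries do not keep strand, so reads of these genes cannot be fully told apart. GENCODE also annotates a processed pseudogene of S100a11, S100a11-ps, and reads shared with it would make the S100a11 level uncertain.

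Promoter sequence is shown for 3 genes with different responses. S100a11 rose in both genotypes, S100b fell in both, and S100a6 moved in opposite directions. The RefSeq promoter table (GRCm38.p6) has an entry for all 7 genes, and the 250 bases before the start were located on GRCm39 by exact match. Bases that GENCODE counts as exon are left out, and matches to the motifs below are in capitals.
S100a6, chr3:90519951-90520139, plus strand: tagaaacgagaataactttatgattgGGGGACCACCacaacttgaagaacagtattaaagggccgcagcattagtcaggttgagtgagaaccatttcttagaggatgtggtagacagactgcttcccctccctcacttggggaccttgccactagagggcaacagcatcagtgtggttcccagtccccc
S100a11, chr3:93427553-93427676, plus strand: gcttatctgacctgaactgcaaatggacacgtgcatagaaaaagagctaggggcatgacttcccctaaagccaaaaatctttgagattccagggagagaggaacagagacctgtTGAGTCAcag
S100b, chr10:76089420-76089476, plus strand: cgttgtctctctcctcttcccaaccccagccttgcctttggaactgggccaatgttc
Motifs of the factors that LPS and IFNγ are known to engage were searched on both strands of the whole 250 bases. The AP-1 motif TGANTCA matched at 2 places in S100a11, of which the first is shown, and at 1 place before the second of 2 starts of S100a16, with 0 matches in the other genes. It occurs in 6.75% of all 32851 promoter windows. The κB motif (GGG and CC with 5 bases between them), which can match at overlapping positions, occurs in 45.8% of all windows. It had 1 match in S100a1, 3 in S100a4, 1 in S100a6, 4 in S100a11, 2 in S100a13, 5 and 1 at the starts of S100a16 and 0 in S100b. The GAS motif TTCNNNGAA and the ISRE motif (GAAA, 2 bases and GAAA again), found in 7.02% and 2.98% of all windows, had 0 matches in the windows of the 7 genes. These matches describe letters and say nothing of binding.

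The levels of the genes spanned a wide range. On the TPM scale, S100a11 was the most abundant of the 7 in every condition, with 864 ± 64.8 TPM (SD, n = 4) in WT vehicle. S100a16 followed with 217 ± 8.64 TPM (SD, n = 4), and S100a1 with 162 ± 25.1 TPM (SD, n = 4). S100a6 came next with 129 ± 19.9 TPM (SD, n = 4), and its litters overlapped those of S100a1, so the order of these neighbours is not set. S100a13, which carries the growth factor FGF1 out of cells, had 50.9 ± 17.8 TPM (SD, n = 4), and S100b had 36.3 ± 13.5 TPM (SD, n = 4), again with overlapping litters. S100a13 is a lower bound here, because some of its transcripts could not be paired with the symbol.

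S100a4, a partner of non-muscle myosin, was the lowest in WT vehicle with 13.2 ± 4.92 TPM (SD, n = 4), and between 11 and 82 reads stood behind each of its 16 values. The order was the same in WT cells given LPS+IFNγ and in Nlrx1-/- vehicle cells. In Nlrx1-/- cells given LPS+IFNγ, S100b was last, with 4.09 ± 3.23 TPM (SD, n = 4), but its litters overlapped those of S100a4 at 5.47 ± 2.25 TPM (SD, n = 4).

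**Figure D1:**
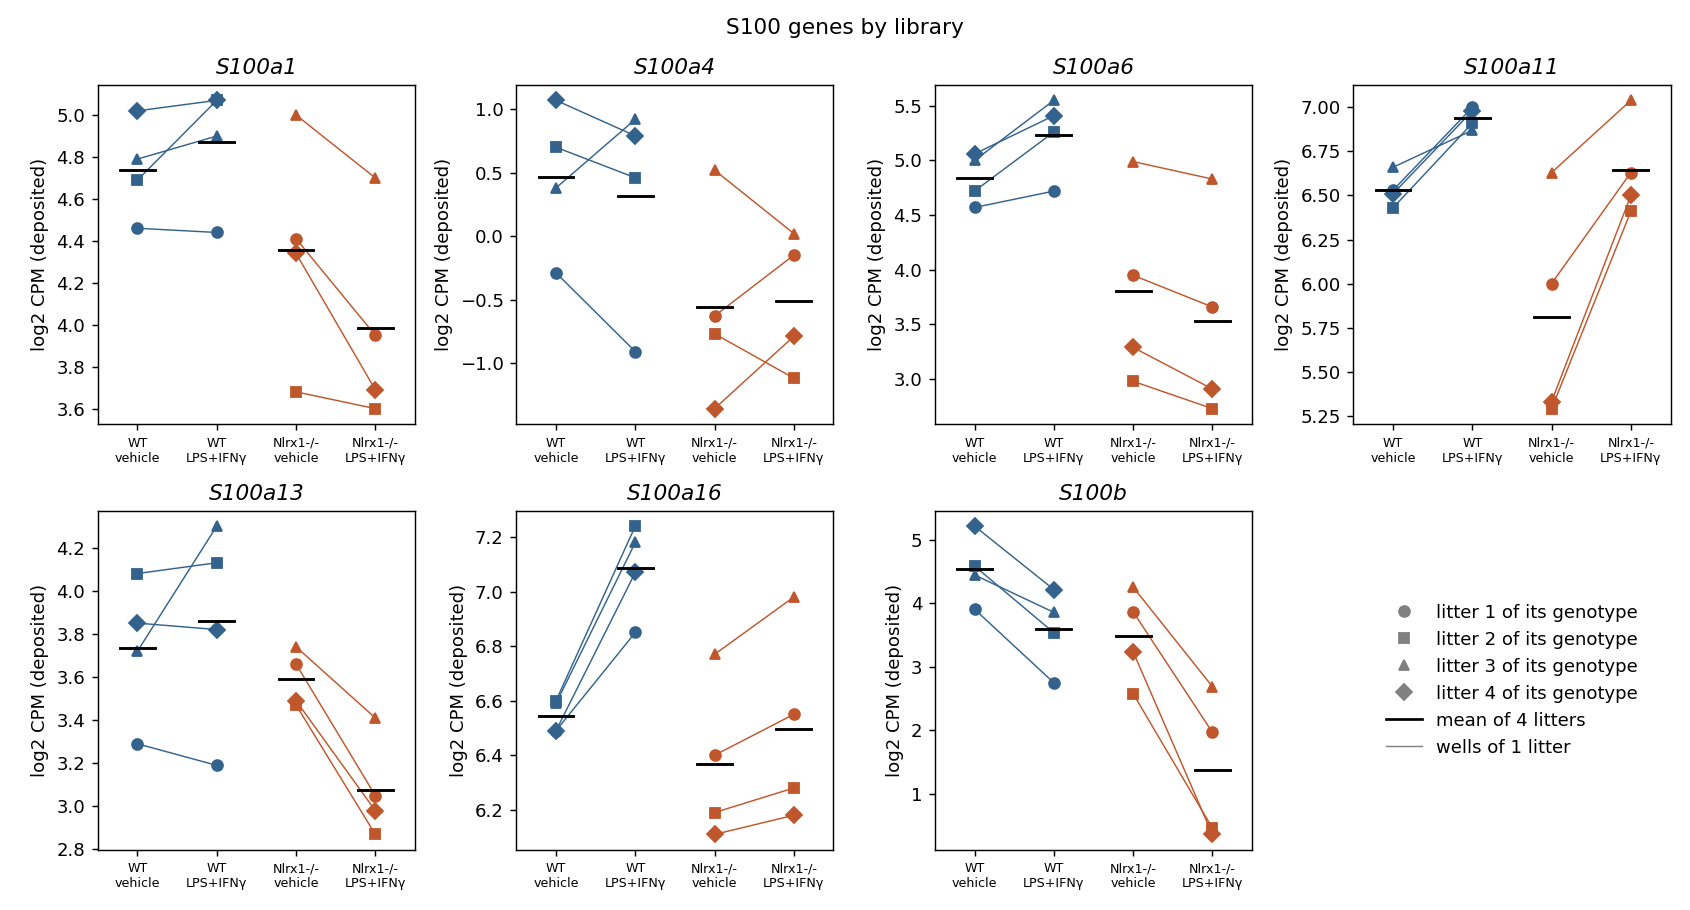
Deposited log2 CPM of the 7 S100 genes in 16 libraries, with WT in blue and Nlrx1-/- in orange, a line joining the wells of 1 litter and a black bar at the mean of 4 litters (vertical scales differ between genes). S100b runs downward in all 8 litters, S100a6 runs upward in the 4 WT litters and downward in the 4 Nlrx1-/- litters, and the triangle of Nlrx1-/- litter 3 is the highest orange point in every panel.

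The response to LPS+IFNγ was asked of each genotype separately, within litters, with edgeR's quasi-likelihood test on summed reads. In WT astrocytes, 3 of the 7 genes rose (S100a6, S100a11 and S100a16), 1 fell (S100b) and 3 did not pass the threshold, while 23.7% of all tested genes rose and 20.2% fell (43.9% in all). In Nlrx1-/- astrocytes, 1 rose (S100a11), 4 fell (S100b, S100a6, S100a1 and S100a13) and 2 did not pass, while 25.3% of all tested genes rose and 24.2% fell (49.4% in all). The median log2 fold change of the 7 genes was 0.17 in WT and -0.29 in Nlrx1-/-, beside -0.02 and -0.03 over all genes. These counts and medians include S100a6 and S100b, by whose lower levels in Nlrx1-/- the family was chosen. The median in Nlrx1-/- is the value of S100a6 itself. S100a1 and S100a13 are counted separately, although their reads cannot be fully told apart. Without Nlrx1-/- litter 3, the counts in both genotypes were the same.

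S100b had the largest response of the 7 genes in both genotypes. In WT vehicle its log2 CPM was 3.91, 4.59, 4.45 and 5.22 in litters 1 to 4, and in LPS+IFNγ it was 2.75, 3.54, 3.86 and 4.22. In Nlrx1-/- vehicle it was 3.87, 2.58, 4.26 and 3.24, and in LPS+IFNγ it was 1.97, 0.46, 2.69 and 0.36. The LPS+IFNγ well was lower than its vehicle well in all 8 litters. For edgeR, the standard error (SE) of a fold change is worked back from the F statistic of its test. The log2 fold change was -0.96 in WT (SE 0.17, edgeR adjusted p = 0.00114), which is 0.514 of the vehicle level. In Nlrx1-/- it was -2.09 (SE 0.19, edgeR adjusted p = 9.85e-06), or 0.234 of the vehicle level. These values rest on 187 to 1406 reads in WT and 37 to 707 in Nlrx1-/- libraries.

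S100a6, also called calcyclin for its link with the cell cycle, moved in opposite directions. In WT vehicle its log2 CPM was 4.57, 4.72, 5.00 and 5.06 in litters 1 to 4, and in LPS+IFNγ it was 4.72, 5.26, 5.55 and 5.41. In Nlrx1-/- vehicle it was 3.95, 2.98, 4.99 and 3.29, and in LPS+IFNγ it was 3.66, 2.73, 4.83 and 2.91. On this scale, all 4 WT litters were higher with treatment and all 4 Nlrx1-/- litters were lower. In TPM, WT litter 1 went from 108 to 104. The log2 fold change was 0.39 in WT (SE 0.08, edgeR adjusted p = 0.00329) and -0.29 in Nlrx1-/- (SE 0.09, edgeR adjusted p = 0.0194). The fall in Nlrx1-/- was the weaker call, since it did not pass with limma-voom (adjusted p = 0.0592), without Nlrx1-/- litter 1 (edgeR, adjusted p = 0.0678) or without litter 4 (edgeR, adjusted p = 0.0718).

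S100a11, a partner of the annexins at membranes, rose in both genotypes. Its log2 CPM in WT was 6.53, 6.43, 6.66 and 6.51 in vehicle and 7.0, 6.91, 6.87 and 6.98 in LPS+IFNγ. In Nlrx1-/- it was 6.00, 5.29, 6.63 and 5.33 in vehicle and 6.63, 6.41, 7.04 and 6.50 in LPS+IFNγ. The treated WT wells lay above every WT vehicle well, and the Nlrx1-/- litters that started lowest, 2 and 4, had the largest increases, 1.12 and 1.17. The log2 fold change was 0.39 in WT (SE 0.11, edgeR adjusted p = 0.0152) and 0.81 in Nlrx1-/- (SE 0.11, edgeR adjusted p = 0.00018). The WT call did not hold without WT litter 1, 2 or 4, with edgeR's adjusted p at 0.0543, 0.0609 and 0.0605.

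S100a16, a broadly used member of the family, rose in WT. Its log2 CPM in WT was 6.49, 6.60, 6.59 and 6.49 in vehicle and 6.85, 7.24, 7.18 and 7.07 in LPS+IFNγ. In Nlrx1-/- it was 6.40, 6.19, 6.77 and 6.11 in vehicle and 6.55, 6.28, 6.98 and 6.18 in LPS+IFNγ. The WT wells did not overlap between treatments, whereas those of Nlrx1-/- did. The log2 fold change was 0.54 in WT (SE 0.06, edgeR adjusted p = 7.43e-05) and 0.10 in Nlrx1-/- (SE 0.06, edgeR adjusted p = 0.244). All 4 Nlrx1-/- litters were slightly higher with treatment in log2 CPM, while their mean TPM went from 191 to 184.

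S100a1, best known as a regulator of calcium release in heart muscle, fell in Nlrx1-/-. There its log2 CPM was 4.41, 3.68, 5.00 and 4.34 in vehicle and 3.95, 3.60, 4.70 and 3.69 in LPS+IFNγ. In WT it was 4.46, 4.69, 4.79 and 5.02 in vehicle and 4.44, 5.07, 4.90 and 5.07 in LPS+IFNγ. Each Nlrx1-/- litter was lower with treatment, and 3 of the 4 WT litters were higher. The log2 fold change was -0.39 in Nlrx1-/- (SE 0.10, edgeR adjusted p = 0.00848) and 0.12 in WT (SE 0.10, edgeR adjusted p = 0.351).

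S100a1 has 2895 exon bases in GENCODE, of which 2563 are also exon of S100a13 on the opposite strand, in libraries that do not keep strand. S100a13 had the same pattern as its neighbour S100a1, and the part of shared reads in this was not tested. Its log2 CPM in Nlrx1-/- was 3.66, 3.47, 3.74 and 3.49 in vehicle and 3.05, 2.87, 3.41 and 2.98 in LPS+IFNγ. In WT it was 3.29, 4.08, 3.72 and 3.85 in vehicle and 3.19, 4.13, 4.30 and 3.82 in LPS+IFNγ. The treated Nlrx1-/- wells all lay below the vehicle wells of that genotype, and the WT wells overlapped. Summed reads of S100a13 reached only 59.3% of the deposited value in the most affected library, so its test is taken from limma on the deposited log2 CPM, where 46.7% of all genes were called in WT and 52.1% in Nlrx1-/-. The log2 fold change was -0.51 in Nlrx1-/- (SE 0.12, limma adjusted p = 0.00341) and 0.12 in WT (SE 0.12, limma adjusted p = 0.418). On the summed reads, edgeR gave -0.84 in Nlrx1-/- (adjusted p = 0.000968). In WT it gave 0.17 (adjusted p = 0.382), which became 0.38 without WT litter 2 and then passed the threshold (adjusted p = 0.043).

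S100a4 passed the threshold in neither genotype. In WT its log2 CPM was -0.29, 0.70, 0.38 and 1.07 in vehicle and -0.91, 0.46, 0.92 and 0.79 in LPS+IFNγ. In Nlrx1-/- it was -0.63, -0.77, 0.52 and -1.36 in vehicle and -0.15, -1.12, 0.02 and -0.79 in LPS+IFNγ. The treatments overlapped in both genotypes. With 11 to 82 reads per library, the log2 fold change was -0.15 in WT (SE 0.34, edgeR adjusted p = 0.753) and 0.04 in Nlrx1-/- (SE 0.36, edgeR adjusted p = 0.939), so changes of moderate size were not detectable at this depth.

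**Figure D2:**
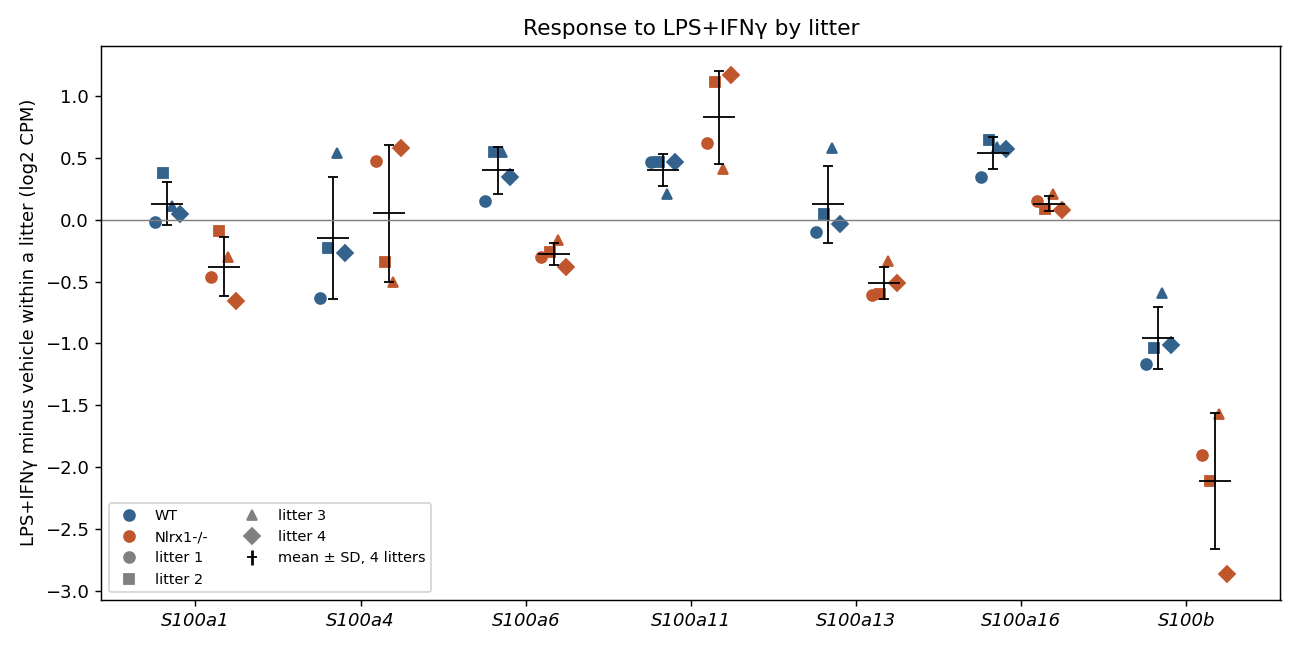
Response of each litter, as the deposited log2 CPM in LPS+IFNγ minus that in vehicle, for the 7 S100 genes in WT (blue) and Nlrx1-/- (orange), with the mean and SD of 4 litters in black. The orange points of S100a1, S100a6, S100a13, S100a16 and S100b all lie below the blue ones, and those of S100a4 and S100a11 overlap them.

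Whether the response differed between the genotypes was asked with the interaction of genotype and treatment. edgeR called 0.0% of the tested genes at an adjusted p below 0.05, that is 0 genes, although 2469 (15.4%) had an unadjusted p below 0.05. DESeq2 called 296 of 12636 genes (2.34%), and edgeR without Nlrx1-/- litter 3 called 125 as higher and 192 as lower. For S100a6 and S100b, the genes behind the choice of the family, the interaction is given without a p. It was -0.68 (SE 0.12) for S100a6 and -1.13 (SE 0.26) for S100b.

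Of the other 5 genes, 0 passed and 4 had an unadjusted p below 0.05. The interaction was -0.45 for S100a16 (SE 0.09, edgeR adjusted p = 0.217) and -0.52 for S100a1 (SE 0.14, edgeR adjusted p = 0.223). It was 0.42 for S100a11 (SE 0.16, edgeR adjusted p = 0.262), and 0.19 for S100a4 (SE 0.50, edgeR adjusted p = 0.895). For S100a13, limma on the deposited values gave -0.64 (SE 0.17, adjusted p = 0.168). DESeq2 called S100a16 (adjusted p = 0.00975) and S100a13 (adjusted p = 0.0109), the latter at -1.0 (log2) on the summed reads that are incomplete for this gene, and edgeR without Nlrx1-/- litter 3 called S100a16 (adjusted p = 0.0461).

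The responses of single litters were also compared. Those of the 4 Nlrx1-/- litters lay below those of the 4 WT litters for 5 of the 7 genes, among them S100a6 and S100b, by which the family was chosen, and 3 of the 5 other genes. Over all genes this held for 5.25%, and the reverse for 3.06%. S100a11 and S100a4 were the genes whose litters overlapped. S100a1 and S100a13, whose reads cannot be fully told apart, are counted separately among the 3. The gaps were small for the 3 other genes. The lowest WT and the highest Nlrx1-/- litter were at -0.02 and -0.09 for S100a1, 0.35 and 0.21 for S100a16, and -0.10 and -0.33 for S100a13.

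The levels of the genotypes are described without a test. In vehicle, all 7 genes had a lower mean in Nlrx1-/- than in WT, by 0.15 (S100a13) to 1.06 (S100b) on the log2 scale. The litters of the genotypes overlapped for every gene, while over all genes 3.43% had the 4 Nlrx1-/- litters below the 4 WT litters and 6.02% had them above. S100b stood at 3.49 ± 0.74 log2 CPM (SD, n = 4) in Nlrx1-/- and 4.54 ± 0.54 (SD, n = 4) in WT, a ratio of 0.481. S100a6 stood at 3.81 ± 0.89 (SD, n = 4) and 4.84 ± 0.23 (SD, n = 4), a ratio of 0.490. For S100a13 the sign in vehicle depended on the values used, since summed reads gave a difference of 0.13 with Nlrx1-/- higher.

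In LPS+IFNγ, the S100b wells of the genotypes no longer overlapped. S100b stood at 1.37 ± 1.15 log2 CPM (SD, n = 4) in Nlrx1-/- and 3.59 ± 0.63 (SD, n = 4) in WT, a ratio of 0.215. It was the only one of the 7 genes without overlap in this condition, in which 6.23% of all genes had every Nlrx1-/- litter below every WT litter and 7.09% had the reverse. S100a6 stood at 3.53 ± 0.96 (SD, n = 4) and 5.24 ± 0.36 (SD, n = 4), a ratio of 0.307, and overlapped through litter 3. The differences of the other 5 genes ran from -0.89 (S100a1) to -0.30 (S100a11).

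The lower levels in vehicle rested on Nlrx1-/- litters 1, 2 and 4. There, these litters lay below the WT mean for 7 of 7 genes, with a median difference over the genes of -0.53 in litter 1, -1.23 in litter 2 and -1.20 in litter 4. Litter 3 lay below the WT mean for 1 gene, with a median difference of 0.10. In LPS+IFNγ litter 3 lay below the WT mean for 6 of 7 genes, and its median difference was -0.30, against -0.81, -1.28 and -1.10 in the other litters. Without litter 3, the highest of the Nlrx1-/- litters, the difference in vehicle widened to -1.43 for S100a6 and -1.32 for S100b, and in LPS+IFNγ to -2.14 and -2.66. With each litter of either genotype left out in turn, the smallest differences were -0.76 and -0.75 in vehicle, and -1.44 and -1.88 in LPS+IFNγ.

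**Figure D3:**
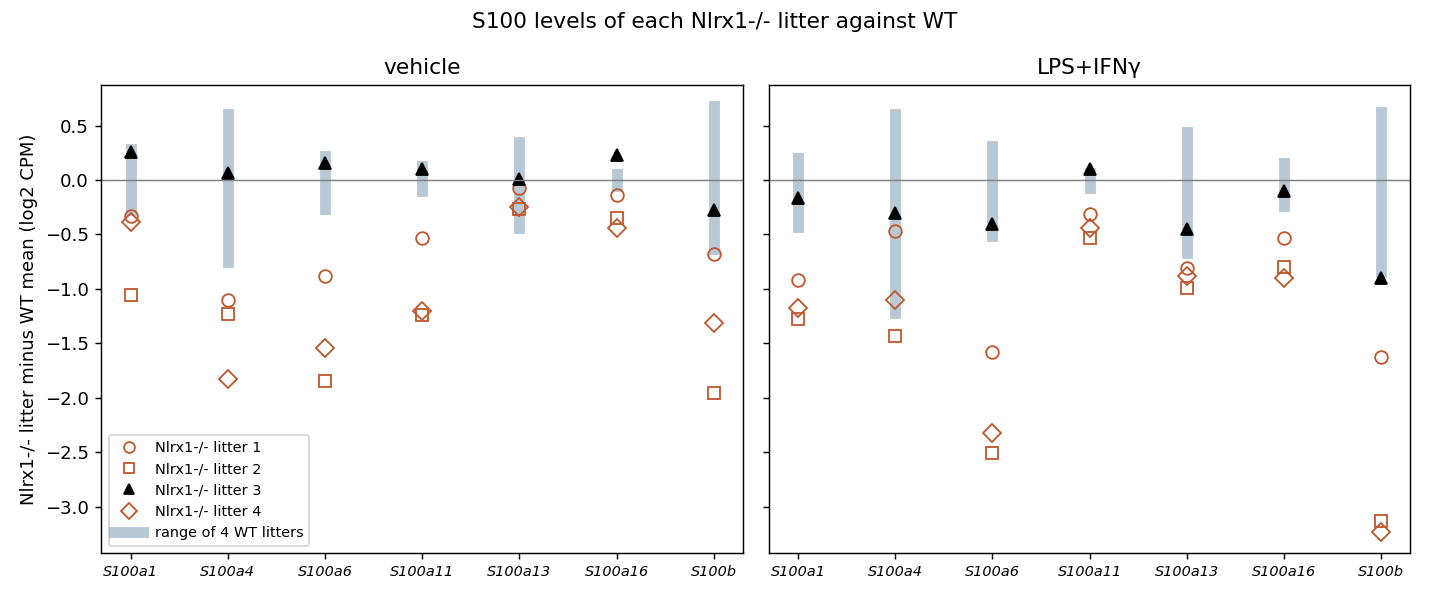
Deposited log2 CPM of each Nlrx1-/- litter minus the WT mean, in vehicle (left) and LPS+IFNγ (right), with the range of the 4 WT litters as a blue bar. Litter 3 (black triangle) lies at or near the WT range for every gene, while litters 1, 2 and 4 (open symbols) lie below it for most genes, furthest for S100b in LPS+IFNγ.

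Markers of other cell types moved with the groups. The summed level of 10 oligodendrocyte lineage markers was 1070 to 1330 TPM in WT vehicle, 773 to 967 in WT LPS+IFNγ, 802 to 1070 in Nlrx1-/- vehicle and 540 to 722 in Nlrx1-/- LPS+IFNγ. The myelin gene Mbp fell in both genotypes, with a log2 fold change of -1.23 in WT and -2.21 in Nlrx1-/-. Of the 10 markers, 0 rose and 6 fell in WT, and 0 rose and 7 fell in Nlrx1-/-. Over all tested genes, 23.7% rose and 20.2% fell in WT, and 25.3% rose and 24.2% fell in Nlrx1-/-. Like S100b, the list was lower in TPM with treatment in both genotypes and lowest in treated Nlrx1-/- cells. The medians of the ependymal or multiciliated and astrocyte lists below had the same pattern. The part of these lists in the S100b result was not tested. The sums are TPM without edgeR's scaling between libraries, so they and the fold changes are on different scales. Olig2, the most abundant marker of this list and picked after its values were seen, had log2 fold changes of -0.06 in WT and -0.09 in Nlrx1-/-. Neither passed the threshold.

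The 10 ependymal or multiciliated markers went from 173 to 252 TPM in WT vehicle to 105 to 155 in WT LPS+IFNγ, and from 90.7 to 186 in Nlrx1-/- vehicle to 56.4 to 99.3 in Nlrx1-/- LPS+IFNγ. Of the 9 that could be tested, 3 fell in WT and 5 in Nlrx1-/-, and 0 rose. Beside these counts and those of the astrocyte list, 23.7% of all tested genes rose and 20.2% fell in WT. In Nlrx1-/-, 25.3% rose and 24.2% fell. The 10 astrocyte markers summed to 4690 to 7500 TPM in WT vehicle, 3700 to 5440 in WT LPS+IFNγ, 3390 to 5630 in Nlrx1-/- vehicle and 2860 to 4200 in Nlrx1-/- LPS+IFNγ, and 3 rose and 4 fell in WT against 2 and 5 in Nlrx1-/-. Within Nlrx1-/-, litter 3 was the highest for both of these lists in both conditions. It was also the highest for the 10 fibroblast or meningeal markers, with 50.8 TPM in vehicle (group median 20.0, WT 28.8 to 32.6) and 34.7 TPM in LPS+IFNγ (group median 19.3, WT 16.3 to 22.8), and the part of these cells in the S100 levels of litter 3 was not tested. Among the astrocyte markers, the water channel Aqp4 had log2 fold changes of -0.85 in WT and -1.28 in Nlrx1-/-, and the gap junction gene Gja1 of -0.98 and -1.33. In bulk RNA, fewer cells of a type and less RNA per cell cannot be told apart, and the part of either in the S100 results was not tested.

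The S100 genes varied together across litters. After the mean of each condition was subtracted, the 21 pairs had a Pearson r over 16 libraries between 0.24 and 0.94, with a median of 0.77. Without Nlrx1-/- litter 3 the range was -0.02 to 0.92 and the median 0.63. The 16 libraries come from 8 litters, so these values describe shared variation between litters and carry no p. No r over pairs of other genes was computed, and some genes outside the family were more alike (below). The shared variation is therefore not shown to be particular to the S100 genes.

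Among 10533 genes with a mean of at least 3 log2 CPM, those most like S100b were Mmd2, a membrane protein of the PAQR family (r = 0.992), Arrb1, the receptor adaptor beta-arrestin 1 (r = 0.986), and Ntrk2, the BDNF receptor TrkB (r = 0.986). Without Nlrx1-/- litter 3 these values were 0.990, 0.979 and 0.982. Like S100b, Mmd2 was highest in WT vehicle at 8.65 ± 0.34 log2 CPM (SD, n = 4) and lowest in Nlrx1-/- LPS+IFNγ at 6.34 ± 0.83 (SD, n = 4). Those most like S100a6 were Timp2, an inhibitor of metalloproteinases (r = 0.977), Bcas1, a gene of early myelinating oligodendrocytes (r = 0.977), and Tgfa, a ligand of the EGF receptor (r = 0.971). Without litter 3 they were 0.919, 0.959 and 0.919. Their likeness lies within conditions: Timp2 went from 8.89 ± 0.16 log2 CPM in WT vehicle to 8.56 ± 0.15 in WT LPS+IFNγ (SD, n = 4 each), whereas S100a6 rose there.

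The reads of S100a16 fell on 7 RefSeq transcript variants, which are named here by length. The variant of 1145 bases took 50.4% to 59.9% of the gene's reads in WT vehicle and 59.9% to 67.9% in WT LPS+IFNγ. In Nlrx1-/- it took 43.7%, 29.1%, 52.6% and 35.5% in vehicle and 50.2%, 33.9%, 66.6% and 46.5% in LPS+IFNγ, in litters 1 to 4. Its share was higher with treatment in 4 of 4 litters of each genotype, by a mean of 7.7 ± 1.4 percentage points in WT and 9.1 ± 4.2 in Nlrx1-/- (SD, n = 4).

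The variant of 1138 bases was next, with 22.4% to 27.8% of the reads in WT vehicle and 20.9% to 41.5% in Nlrx1-/- vehicle. The variant of 1026 bases took 7.9 ± 1.5% and 17.6 ± 4.1% (SD, n = 4) of the reads in these conditions. In LPS+IFNγ it took 5.7% to 9.1% in WT and 4.2% to 17.4% in Nlrx1-/-, which overlap. The variants share most of their sequence, so their split is an estimate of Salmon's model. It was looked at after the values of the gene had been seen, and no test was made.

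**Figure D4:**
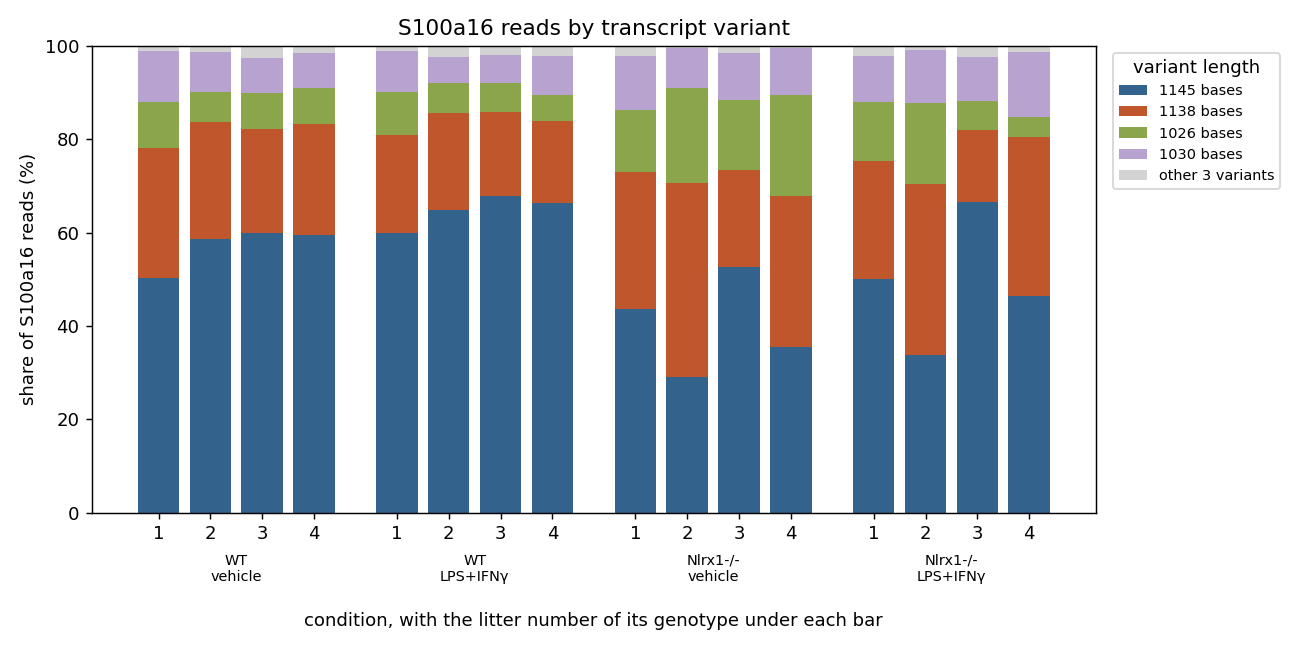
Share of S100a16 reads on each transcript variant, named by its length, in 16 libraries (bars stack to 100%). The variant of 1145 bases (blue) is above 50% in every WT library and reaches that level in Nlrx1-/- only in litter 3 and in the treated well of litter 1.

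Other S100 genes were few in these cells. Of 11 genes listed beside the 7, 3 could be tested. S100a10, which does not bind calcium and pairs with annexin A2, lay between S100a11 and S100a16 in abundance, with 637 ± 54.3 TPM (SD, n = 4) in WT vehicle. It rose in both genotypes, with a log2 fold change of 0.50 in WT (SE 0.08, edgeR adjusted p = 0.000489) and 0.49 in Nlrx1-/- (SE 0.08, edgeR adjusted p = 0.00048). S100a8 and S100a9, the calprotectin subunits of myeloid cells, had 0 reads in all 16 libraries, which allows up to 3 reads per library, or 0.0686 to 0.110 CPM depending on depth.

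The receptors and binding partners of S100 proteins responded in mixed directions. Of 34 tested, 13 rose and 5 fell in WT, with a median of 0.09, and 13 rose and 7 fell in Nlrx1-/-, with a median of 0.05. Among all tested genes, 23.7% rose and 20.2% fell in WT, and 25.3% rose and 24.2% fell in Nlrx1-/-. Tlr4, the LPS receptor that also answers to S100 proteins, rose by 1.65 in WT (SE 0.17, edgeR adjusted p = 2.93e-05) and 2.21 in Nlrx1-/- (SE 0.17, edgeR adjusted p = 3.2e-06). Fgf1, the cargo of S100a13, fell by 1.11 in WT and by 1.13 in Nlrx1-/- (edgeR, adjusted p = 6.1e-06 and 4.22e-06). Mcam, a cell adhesion receptor, fell by 0.90 in both (edgeR, adjusted p = 0.00463 and 0.00372). Cacybp, which is named for binding S100a6 and was picked after its values were seen, rose by 0.76 in WT and 0.93 in Nlrx1-/- (edgeR, adjusted p = 2.95e-06 and 5.52e-07), where S100a6 fell.

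Of the annexins, the calcium-dependent membrane proteins that several S100 dimers hold, 9 were tested. In WT, 3 rose and 1 fell, and in Nlrx1-/-, 4 rose and 0 fell. The shares of all tested genes were 23.7% up and 20.2% down in WT, and 25.3% up and 24.2% down in Nlrx1-/-. Anxa3 rose by 1.27 in WT and 1.91 in Nlrx1-/- (edgeR, adjusted p = 0.000639 and 3.44e-05), and Anxa7 rose by 0.41 and 0.71 (edgeR, adjusted p = 0.0175 and 0.000664). Anxa11 fell by 0.49 in WT (edgeR, adjusted p = 0.0231) and had a log2 fold change of 0.00 in Nlrx1-/- (edgeR, adjusted p = 0.986).

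Of 34 other EF-hand calcium sensors, 15 rose and 6 fell in WT, and 14 rose and 9 fell in Nlrx1-/-, with medians of 0.14 and 0.15. For all tested genes, 23.7% rose and 20.2% fell in WT, and 25.3% rose and 24.2% fell in Nlrx1-/-. The largest responses belonged to genes with few reads. Calb2 (calretinin) had 0 to 4 reads per library in WT vehicle and 25 to 59 in WT LPS+IFNγ, and it rose in both genotypes (edgeR, adjusted p = 0.000119 and 0.000728). Hpca (hippocalcin) rose by 2.28 in WT and 1.52 in Nlrx1-/- (edgeR, adjusted p = 0.00678 and 0.0419), from 4 to 20 reads in WT vehicle to 38 to 80 in WT LPS+IFNγ. Pvalb (parvalbumin) fell, with log2 fold changes of -2.39 and -1.89 (edgeR, adjusted p = 0.0112 and 0.0405), from 21 to 111 reads in WT vehicle to 1 to 32 in WT LPS+IFNγ.

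**Figure D5:**
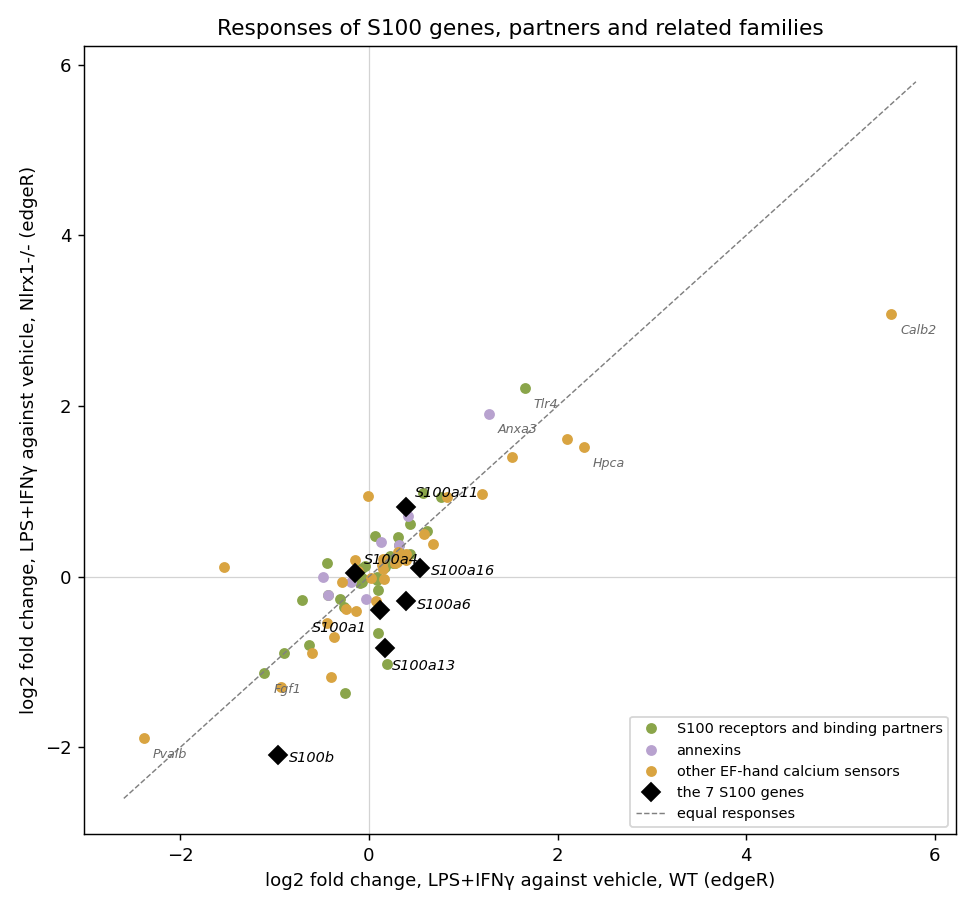
Log2 fold change of LPS+IFNγ against vehicle in WT (horizontal) and Nlrx1-/- (vertical) from edgeR, for the 7 S100 genes (black diamonds) and the tested genes of 3 related lists, with a dashed line at equal responses. S100b, S100a13, S100a6, S100a1 and S100a16 lie below the line and S100a11 and S100a4 above it, and the fold change of Calb2 rests on vehicle libraries with 0 to 4 reads in WT.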

How the data were processed

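Per the labels and the study's methods, the authors quantified paired-end, non-stranded reads with Salmon 1.7.0 on RefSeq transcripts of GRCm39 and deposited the expected count, TPM and effective length of 129698 transcripts per library. They also deposited CPM (not used here) and log2 CPM per gene from limma 3.58.1. Expected counts and TPM were summed per gene over the 106430 transcripts paired with a symbol by RefSeq accession (96.7% to 97.25% of reads), and the counts were rounded. Unpaired transcripts leave S100a13 short by over 10% in 7 libraries. Summed reads of S100a4 were also short by over 10% in 6 libraries (lowest 84.0% of the deposited value), and the cause was not tested. Levels and litter responses use the deposited log2 CPM, and orders between genes use TPM.

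Response tests used the quasi-likelihood model of edgeR 4.0.16 under R 4.3.3. This model gives no SE, so each edgeR SE is the absolute log2 fold change divided by the square root of the F statistic. TMM scaling, offsets for effective length and a minimum count of 10 (filterByExpr) were applied, with litters as blocks within genotype and Benjamini-Hochberg adjustment over all genes, at 0.05. The series design pairs the wells of a litter. Condition-centred values of litter mates correlated across genes at 0.073 to 0.355, against a median of -0.052 for other litters. Centring makes the 4 litters of a condition sum to 0, so positive values for litter mates push those for other litters below 0. The median for other litters is therefore no independent baseline. Fits were run on simulated data without differences between litters, so that check does not bear on the spread between litters. Alternatives used DESeq2 1.42.0, limma 3.58.1, other filters, offsets, size factors and thresholds, no block, and each litter left out. Sums and plots came from pandas 2.3.3 and matplotlib 3.10.9 under Python 3.11.15, with numpy 2.4.6.

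The members and gene lists were chosen with earlier results of these data known. The named genes are the members, Nlrx1, S100a8, S100a9, S100a10, the 3 genes of each list with the largest absolute WT response among those called in either genotype, and the 3 genes most correlated with S100a6 and with S100b. The values of 1 marker gene are not reported here. The microglia list had 2 genes that could be tested, of which 0 rose in WT and 1 (P2ry12) in Nlrx1-/-. The fibroblast, neuron and endothelial marker lists had 2, 3 and 2 genes that rose in Nlrx1-/- and 2, 3 and 1 that fell, and in WT 0, 3 and 2 that rose and 2, 2 and 1 that fell. Of all tested genes, 25.3% rose and 24.2% fell in Nlrx1-/-, and 23.7% rose and 20.2% fell in WT. Intervals were not computed for single values, and the spread between litters is the error given.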

Additional observations from a re-analysis of the deposited data

Results flagged for a closer look

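S100a6 was marked because its responses in deposited log2 CPM had opposite signs in the genotypes in every litter. The mean response of the 4 Nlrx1-/- litters minus that of the 4 WT litters was -0.67 on the deposited log2 CPM scale. The difference was not tested for this gene, because lower S100a6 in Nlrx1-/- was among the reasons for describing the family.

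The S100a11 response of WT litter 3, at 0.21, lay far below the 0.47 of the other 3 WT litters. It was the 1 set with a litter this far from the rest among the 42 sets of 4 litters examined, and chance alone marks about 1 in 20 sets.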

How the results depend on the processing

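The direction of the fitted response was kept under every alternative fit for 6 of the 7 genes in both genotypes, and S100a4 alone changed sign. Its log2 fold change ran from -0.40 to 0.0045 in WT and from -0.14 to 0.25 in Nlrx1-/- when single litters were left out, and in Nlrx1-/- it was -0.05 without the litter block and -0.036 with limma-voom. None of these fits used TPM, on which other small responses also changed sign. With treatment, mean TPM went from 162 to 153 for S100a1 and from 50.9 to 49.1 for S100a13 (incomplete) in WT. In Nlrx1-/- that of S100a16 went from 191 to 184. With no replicate block, 1 member instead of 3 rose and 0 instead of 1 fell in WT, and 2 instead of 4 fell in Nlrx1-/-, where the pairing of wells within a litter is ignored. S100a6 in both genotypes, S100a11 and S100b in WT and S100a1 in Nlrx1-/- then missed the threshold (edgeR adjusted p from 0.142 to 0.702). A threshold of 0.01 left 2035 genes that fell in WT, and S100a11 in WT and S100a6 in Nlrx1-/- missed it.

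The interaction depended most on the method and on Nlrx1-/- litter 3. Genes called numbered 111 higher and 185 lower with DESeq2, and 0 to 125 higher and 0 to 192 lower when single litters were left out, with 1 higher without WT litter 1. Without the count filter 1 gene was called lower. Of the 5 members tested, 2 were called lower with DESeq2 and 0 to 1 when single litters were left out. The causes were not tested. The genotype difference of S100a13 in vehicle was 0.13 from summed counts and -0.15 from deposited values. Litter numbers pair nothing between genotypes, and with equal groups a replicate block by number leaves the difference of means as it is (7 of 7 members lower in Nlrx1-/-), so it tests nothing. Few reads limit S100a4, and unpaired transcripts limit S100a13.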
